A study of Arabidopsis thaliana with 27 samples.

Results

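In whole Arabidopsis thaliana seedlings, 13 of 21497 tested genes met a rule on their mean signals along the NaCl doses. These means stayed near the untreated level at 50, 75 and 100 mM NaCl and were lower at 125 mM NaCl. In 6 of the 13 genes the fall rested on 1 of the 3 arrays at 125mM NaCl. A gene was taken when its mean log2 signal at 125mM NaCl lay at least 1 unit below that in ATS media (1 unit is a 2-fold change) and its means at the 3 lower NaCl doses lay within 0.3 units of it. The genes were thus chosen by the NaCl and ATS media values, which are given as a description, with no test. The seedlings, Col-0 plants 2 weeks old, had been sown on agar that held ATS salts plus NaCl (50, 75, 100 or 125 mM), plus sorbitol at iso-osmolar doses (100, 150, 200 and 250 mM), or nothing more (ATS media). Each of these 9 groups had 3 one-colour arrays. The paper calls the 3 repeats of the microarray data biological. Neither it nor the labels say whether the 3 RNA samples of a group came from separate dishes. The p-values thus measure the spread between these samples, whose sources are not described further. An array averages shoot and root, and fewer cells of a type cannot be told apart from less RNA per cell.

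The arrays sat on 7 slides. No 125mM NaCl array shared a slide with ATS media or with another NaCl dose, so slide and group cannot be told apart in the contrast that chose the genes. No sorbitol array shared a slide with ATS media, so the same holds for every contrast of sorbitol with ATS media. The 125mM NaCl arrays did share slides 2 and 5 with the 100mM sorbitol arrays, and the 3 arrays of 250mM sorbitol filled a slide alone. Each gene takes its brightest probe, and a gene was tested when that probe was well above background on all 3 arrays of a group.

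NAC proteins are a family of transcription factors found in plants. The VND genes (vascular-related NAC-domain) switch on the making of xylem vessels, the dead, thick-walled tubes that carry water from root to shoot. Among them, VND6 (NAC101 in the annotation) is known for the vessels of the metaxylem and VND7 for those of the protoxylem. The programme that they start lays down a secondary wall of cellulose and xylan and then clears the cell by autolysis.

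Few of the genes that were lower at 125mM NaCl had stayed within 0.3 units of ATS media at 100mM NaCl. Of 1509 genes that lay at least 1 unit down at 125mM NaCl, 1454 (96.4%) were already more than 0.3 units down at 100mM NaCl, 15 lay more than 0.3 units up there, and 40 lay within 0.3 units. The 13 genes are 0.861% of the 1509. The same limits turned upwards gave 72 genes.

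The 13 genes were of 3 kinds when the arrays were read one by one. In 4 genes, NAC101, NAC074, CYP716A1 and AT5G44060, all 3 arrays at 125mM NaCl were low and above background. In 6 genes, ARI8, AT3G62000, AT4G26870, AT3G04184, COPT4 and NAC050, replicate 2 alone carried the fall. The last 3 genes, AT2G18140, AT1G72350 and ABCG28, gave dim signals throughout. In 10 of the 13, every 125mM NaCl array lay below every ATS media array, as it did in 43% of all genes tested, and nothing is read from this count since the rule used these arrays.

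**Figure D1:**
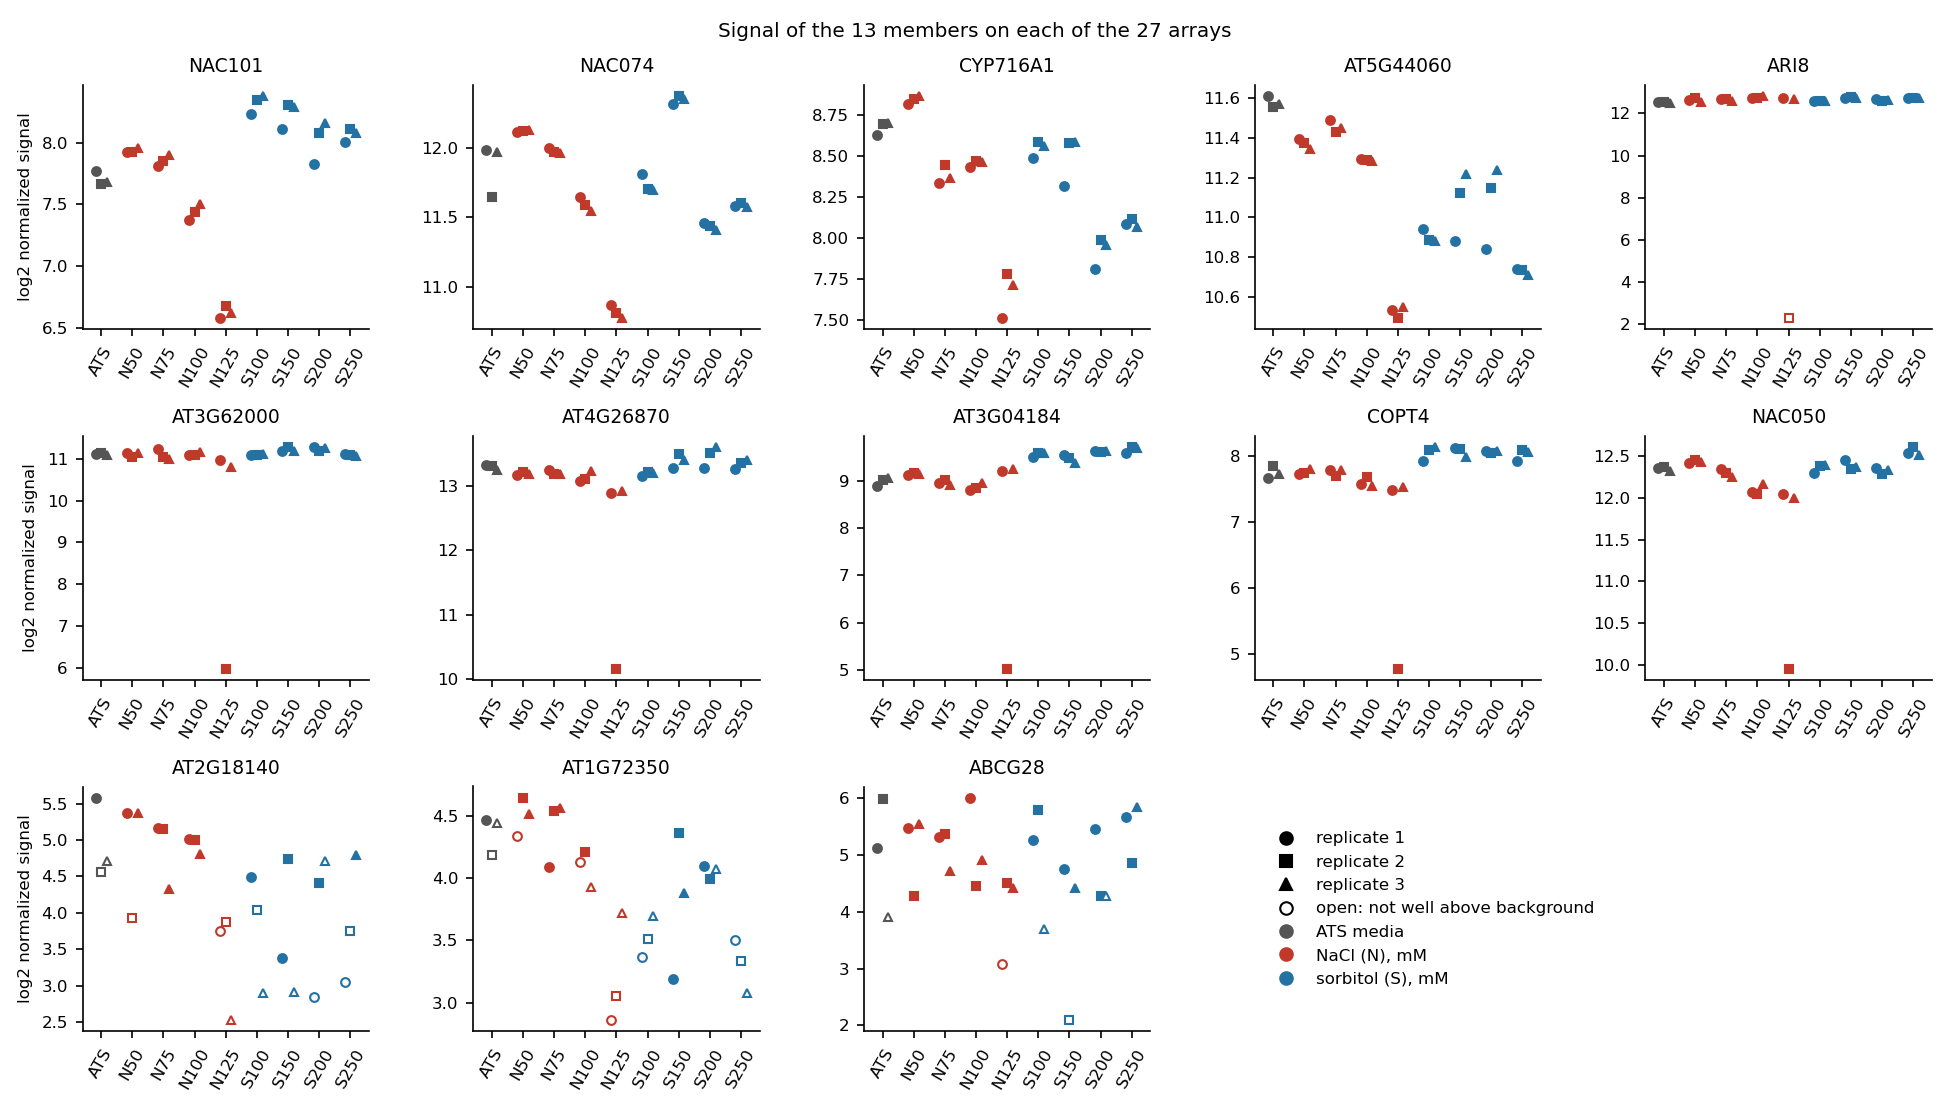
Normalized log2 signal (vertical axis) of each of the 13 genes on all 27 arrays, grouped along the horizontal axis by ATS media, NaCl dose and sorbitol dose in mM. The top row holds the 4 genes with all 3 arrays low at 125mM NaCl and then ARI8, where only replicate 2 (square) was low, at 2.27.

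NAC101 (AT5G62380, VND6) had log2 signals of 6.58, 6.67 and 6.62 at 125mM NaCl, against 7.77, 7.67 and 7.68 in ATS media. The group means differed by -1.08, and the 3 arrays at 125mM NaCl were the lowest of all 27. Along the NaCl series its mean lay 0.23, 0.15, -0.27 and -1.08 units from ATS media at 50, 75, 100 and 125 mM. The course thus rose slightly above the untreated level, was a little below it at 100 mM, close to the limit of the rule, and then dropped. On sorbitol the gene ran the other way, with 8.23, 8.35 and 8.38 at 100mM sorbitol. Its difference from ATS media was 0.61 ± 0.07 there (SE of the fit, n = 3 each, limma adjusted p = 1.01e-07), 0.53 at 150mM, 0.32 at 200mM and 0.36 ± 0.07 at 250mM sorbitol (adjusted p = 5.96e-05). The 12 sorbitol arrays all lay above the 3 ATS media arrays. The sorbitol contrasts share the ATS media arrays with the rule, and slide and sorbitol cannot be told apart in them.

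NAC074 (AT4G28530), another NAC factor, known as KIRA1 for its part in the programmed death of stigma cells, had 10.87, 10.81 and 10.77 at 125mM NaCl, against 11.99, 11.65 and 11.97 in ATS media. The difference was -1.05, and all 3 arrays at 125mM NaCl lay below the lowest of the other 24, which was 11.41 at 200mM sorbitol. At 50, 75 and 100mM NaCl it lay 0.25, 0.11 and -0.27 units from ATS media. On sorbitol it lay on both sides of ATS media. At 150mM sorbitol it had 12.32, 12.38 and 12.36, which was higher than in ATS media by 0.48 ± 0.06 (limma adjusted p = 4.28e-07). At 200mM sorbitol it had 11.46, 11.44 and 11.41, lower by 0.43 units (adjusted p = 1.94e-06).

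CYP716A1 (AT5G36110) encodes a cytochrome P450 of a subfamily that oxidises triterpenes. Its log2 signals were 7.51, 7.78 and 7.72 at 125mM NaCl, against 8.63, 8.70 and 8.71 in ATS media, a difference of -1.01. The groups did not overlap, but the path to this point was uneven, with 0.17 at 50mM, -0.29 at 75mM and -0.22 at 100mM NaCl. On high sorbitol it was lower than in ATS media as well. It had 7.81, 7.99 and 7.96 at 200mM sorbitol (-0.76 ± 0.07 against ATS media, limma adjusted p = 3.04e-09) and 8.09, 8.12 and 8.06 at 250mM sorbitol (-0.59 ± 0.07, adjusted p = 9.13e-08).

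AT5G44060, which the reference table leaves without a name, had 10.53, 10.49 and 10.55 at 125mM NaCl, against 11.61, 11.56 and 11.57 in ATS media. The difference was -1.06 by its brightest probe and -0.76 by its other probe, so the second probe would have missed the limit of the rule. This gene was the nearest to that limit at 100mM NaCl, at -0.29. At all 4 sorbitol doses it lay below ATS media, at -0.68, -0.51, -0.51 and -0.85 units from 100 to 250 mM. The highest of the 4 adjusted p-values (limma) was 5.65e-06.

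At 100mM NaCl these 4 genes lay -0.22 to -0.29 units from ATS media, all just inside the limit of 0.3. At that dose NAC101 had 7.37, 7.44 and 7.50, CYP716A1 8.44, 8.47 and 8.46, and AT5G44060 11.29, 11.29 and 11.28. In these genes every 100mM NaCl array lay below every ATS media array, whereas in NAC074 the arrays overlapped. The share of all genes where that holds was not computed. With the limit set at 0.2 the rule gave 6 genes and none of these 4 was among them. With each array scaled to its 75th percentile, the 125mM NaCl difference was -0.95 in NAC101 and -0.89 in CYP716A1, which then missed the fall limit, and -1.002 in NAC074 and -1.0015 in AT5G44060. With normexp background correction it was -0.49, -0.66, -1.05 and -0.95 in NAC101, CYP716A1, NAC074 and AT5G44060. NAC074 then lay at -0.33 at 100mM NaCl, outside the limit of 0.3, so none of these 4 met the rule with normexp.

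The other VND genes were then read beside NAC101, a choice made after the values were seen. In all 7 VND genes every 125mM NaCl array lay below every ATS media array, as in 43% of all genes tested. In all 7, every 250mM sorbitol array lay above every ATS media array, as it did in 44.7% of all genes tested. Both held together in 11.9% of the genes without a masked value. The other 6 were all called lower at 125mM NaCl (limma adjusted p under 0.01, as for 37.9% of all genes), with differences of -0.56 (VND5) to -1.35 (VND7). VND7 had group means of 6.80 at 125mM NaCl and 8.16 in ATS media. At 100mM NaCl, where the rule held NAC101 to within 0.3 units, 5 of the 6 were called lower (30.3% of all genes were), by -0.44 to -0.63 units, and only VND5 was not (-0.15, adjusted p = 0.0602). On sorbitol at 100 and 250 mM none of the 6 was called lower (28.3% and 30.5% of all genes were). At 100mM sorbitol 5 were called higher, as were 26.7% of all genes, and at 250mM sorbitol 4 were, as were 36.2%, with differences of 0.18 to 0.35 at 250mM sorbitol.

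With slide as a random block, all 6 were called lower at 125mM NaCl (limma, highest adjusted p = 0.000137), and 4 and 3 were called higher at 100mM and 250mM sorbitol. No slide held ATS media with any of these groups, so the block cannot separate slide from dose. The share of all genes called under it was not computed, and nothing is read from these counts. The signs at 125mM NaCl and at 250mM sorbitol were the same in all 7 genes under both other scalings, with falls of -0.44 to -1.22 (75th percentile) and -0.19 to -0.73 (normexp) at 125mM NaCl.

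The 7 genes of the vessel programme read here also lay below ATS media at 125mM NaCl. They too were picked after the values were seen, and their values are a description from which no call is read. Of all genes tested, 37.9% were called lower at that dose. XCP1 and XCP2 encode the peptidases that digest the contents of the vessel cell, and they lay -1.22 and -0.86 units from ATS media at 125mM NaCl. The secondary wall cellulose synthases CESA4, IRX3 and IRX1 lay at -1.32, -0.93 and -0.87. MYB46 and MYB83, transcription factors that act below the VND genes, lay at -0.56 and -0.52 at 125mM NaCl. At 100mM NaCl these 2 lay at 0.04, while XCP1, CESA4, XCP2, IRX1 and IRX3 already lay at -0.70, -0.64, -0.58, -0.44 and -0.34. At 250mM sorbitol, MYB46, MYB83, IRX1 and IRX3 lay 0.49, 0.49, 0.52 and 0.50 units above ATS media, while XCP1 and CESA4 lay at -0.39 and -0.17. The median of the 7 genes, XCP2 included, was 0.49 at 250mM sorbitol and -0.87 at 125mM NaCl. The genes lay on both sides of ATS media at 250mM sorbitol, which the median does not show. For 250mM minus 100mM sorbitol their median was -0.32.

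**Figure D2:**
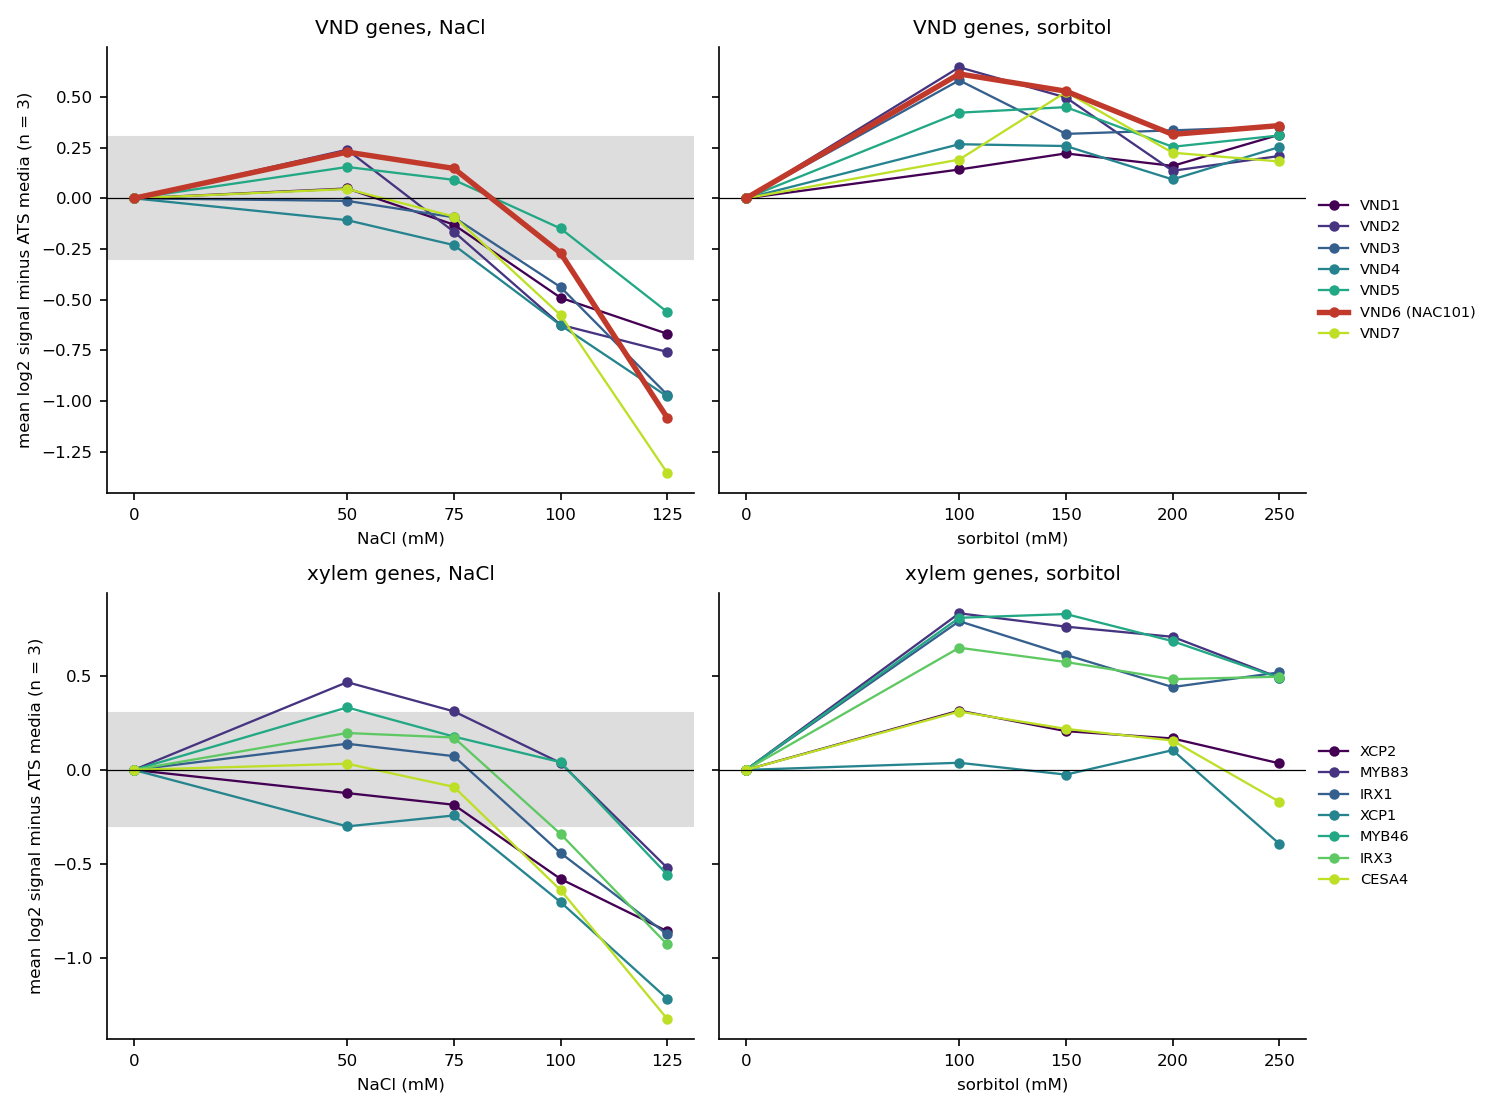
Mean log2 signal minus that of ATS media (vertical axis, n = 3 arrays per point) against the dose of NaCl (left) or sorbitol (right) in mM, for the 7 VND genes (top) and 7 xylem genes (bottom). The grey band marks the 0.3 units that the rule allowed at the 3 lower NaCl doses, and VND6 (thick red) stays inside it at 100 mM with -0.27 and reaches -1.08 at 125 mM.

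Most markers of root tissue were also lower at 125mM NaCl, as the VND genes were. Of 12 root markers, 11 were called lower and 1 (PYK10) higher at 125mM NaCl, against 37.9% and 32.4% of all genes tested. At least 1 unit down were 9 of the 12, against 1509 of the 21497 genes tested. The 9 included the endodermal CASP1, CASP2, CASP4 and CASP5 and the root hair genes EXPA7 and RSL4. At 100mM NaCl the 12 markers ran from -1.92 (CASP5) to 0.06 (PYK10) units from ATS media. All 12 markers gave signal, the lowest group mean being 5.31 (CASP5 at 125mM NaCl). The summed linear signal of the 12 markers, most of it from PYK10, was 169000 to 182000 at 125mM NaCl and 175000 to 180000 in ATS media. At 250mM sorbitol it was 199000 to 207000, with 7 markers called lower and 2 higher (30.5% and 36.2% of all genes were). All 7 VND genes lay above ATS media there. Of 16 shoot markers, 2 were called lower at 125mM NaCl, against 37.9% of all genes tested. The sum of the 16 was 4220000 to 4250000 at 125mM NaCl and 4360000 to 4390000 in ATS media. LHCB2.1, with a mean of 10.68 in ATS media, lay at -0.91 at 125mM NaCl. Every other shoot marker had a mean of at least 17.45 in ATS media. Whether signals so bright could show a change in the share of shoot RNA was not tested. The part of these shifts in the fall of the VND genes was not tested.

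In the next 6 genes the group mean at 125mM NaCl was set by replicate 2. ARI8 (AT1G65430), of the ARIADNE family of ubiquitin ligases, had 12.73, 2.27 and 12.68 at 125mM NaCl, against 12.53, 12.53 and 12.47 in ATS media. Its mean difference of -3.28 was the largest of the 13, yet the other 2 arrays lay above ATS media by 0.19 units, and its second probe differed from ATS media by 0.04. AT3G62000 had 10.96, 5.98 and 10.81 at 125mM NaCl, against 11.10, 11.14 and 11.10 in ATS media. AT4G26870 had 12.89, 10.15 and 12.93, against 13.33, 13.31 and 13.26 in ATS media. In both, replicates 1 and 3 lay below ATS media, but only slightly.

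AT3G04184 had 9.20, 5.02 and 9.26 at 125mM NaCl, against 8.90, 9.02 and 9.05 in ATS media, so that replicates 1 and 3 were higher than untreated. COPT4 (AT2G37925), a member of the copper transporter family, had 7.49, 4.77 and 7.52, against 7.66, 7.84 and 7.72 in ATS media. NAC050 (AT3G10480), a NAC factor that works with a histone demethylase, had 12.05, 9.95 and 12.002, against 12.36, 12.38 and 12.32 in ATS media. Without replicate 2, the difference from ATS media was -0.23 in AT3G62000, -0.39 in AT4G26870, 0.24 in AT3G04184, -0.24 in COPT4 and -0.32 in NAC050. NAC050 had a second probe with 9.31, 9.35 and 9.25 at 125mM NaCl, where replicate 2 was not low. That probe lay -0.79 units from ATS media at 125mM NaCl and -0.50 at 100mM NaCl, a graded fall that does not meet the rule.

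The replicate 2 spots of these 6 genes lay together on the array. They fell within a block of rows 1 to 11 and columns 32 to 37 of the 532 rows and 85 columns of spots. A low spot was taken as one at least 1 unit below both other replicates of its group, where these had signals above 100. The array of 125mM NaCl replicate 2 held 27 low spots, and 26 of them were among the 65 gene spots of this block, which are 0.148% of the gene spots of the array. The same block held 0 low spots on each of the other 26 arrays. The scanner software had flagged the low spots of AT3G62000, AT4G26870 and NAC050 as outliers and had not flagged those of ARI8, AT3G04184 and COPT4. When the spots of the block were left out of this array, the rule gave 7 genes, the other 7 of the 13. When the whole array was left out, it gave 9 genes, of which 7 were among the 13 and 2, AtMT4b and CLE11, were new. Of the 72 genes found by the limits turned upwards, 1 lost its shift to under 0.5 units on leaving out a single array, against 6 of the 13.

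**Figure D3:**
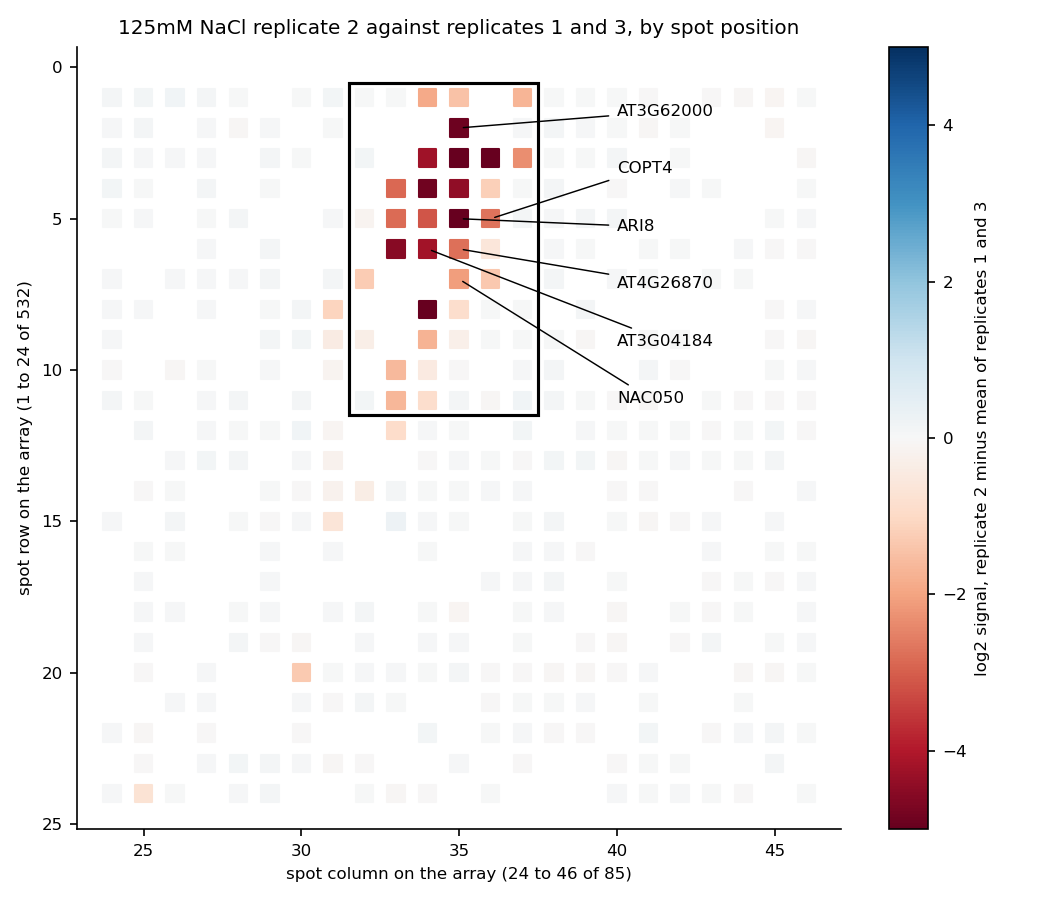
Signal of 125mM NaCl replicate 2 minus the mean of replicates 1 and 3 (colour, log2 units, capped at 5 in size) by spot column (horizontal) and row (vertical) in one corner of the array, for spots with a signal above 100. The box encloses rows 1 to 11 and columns 32 to 37, which hold 26 of the 27 low spots of the array and all 6 named genes.

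The remaining 3 genes were dim. AT2G18140 had 3.75, 3.87 and 2.53 at 125mM NaCl, against 5.58, 4.55 and 4.72 in ATS media, with 0 of 3 and 1 of 3 arrays well above background. At 75mM NaCl, where all 3 arrays were well above background, it had a mean of 4.88. Against that dose, and with the lowest signal called well above background on each array as a floor, it was at least 1.89-fold lower at 125mM NaCl. AT1G72350 had 2.86, 3.05 and 3.72, against 4.46, 4.19 and 4.45 in ATS media, again with 0 of 3 and 1 of 3 arrays well above background. Against 75mM NaCl, with 3 of 3 above background and a mean of 4.40, it was at least 1.40-fold lower at 125mM NaCl. Neither gene was well above background on more than 1 of 3 arrays at 250mM sorbitol. ABCG28 (AT5G60740), a half-size ABC transporter studied in pollen tubes, had 3.08, 4.51 and 4.43 at 125mM NaCl, against 5.13, 5.99 and 3.91 in ATS media. Its groups overlapped, and the SD within ATS media, 1.04, was as large as the difference of -1.01 between the means. With the demand that a gene be well above background on all 3 ATS media arrays, these 3 dropped out and 10 genes were left.

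Within shared slides, the 125mM NaCl arrays can be set against 100mM sorbitol with slide held fixed, although 100 mM sorbitol is iso-osmolar with 50 mM NaCl and not with 125 mM. NAC101 differed by -1.65 on slide 2 (1 array of each) and by -1.72 on slide 5 (2 of each). NAC074 differed by -0.95 and -0.91, CYP716A1 by -0.98 and -0.83, and AT5G44060 by -0.41 and -0.36. These values reuse the 125mM NaCl arrays that chose the genes and are a description. The 6 genes of the block gave unlike values on the 2 slides, as in ARI8 with 0.12 on slide 2 and -5.10 on slide 5. Without replicate 2 they lay between -0.59 (COPT4) and 0.10 (ARI8) on slide 5. The median of the 13 genes, averaged over both slides, was -0.90 with all arrays and -0.37 without 125mM NaCl replicate 2. Both medians were taken with outlier-flagged values masked, so AT3G62000, AT4G26870 and NAC050 enter them without their low replicate 2. The values of single genes above and in the figure are unmasked.

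**Figure D4:**
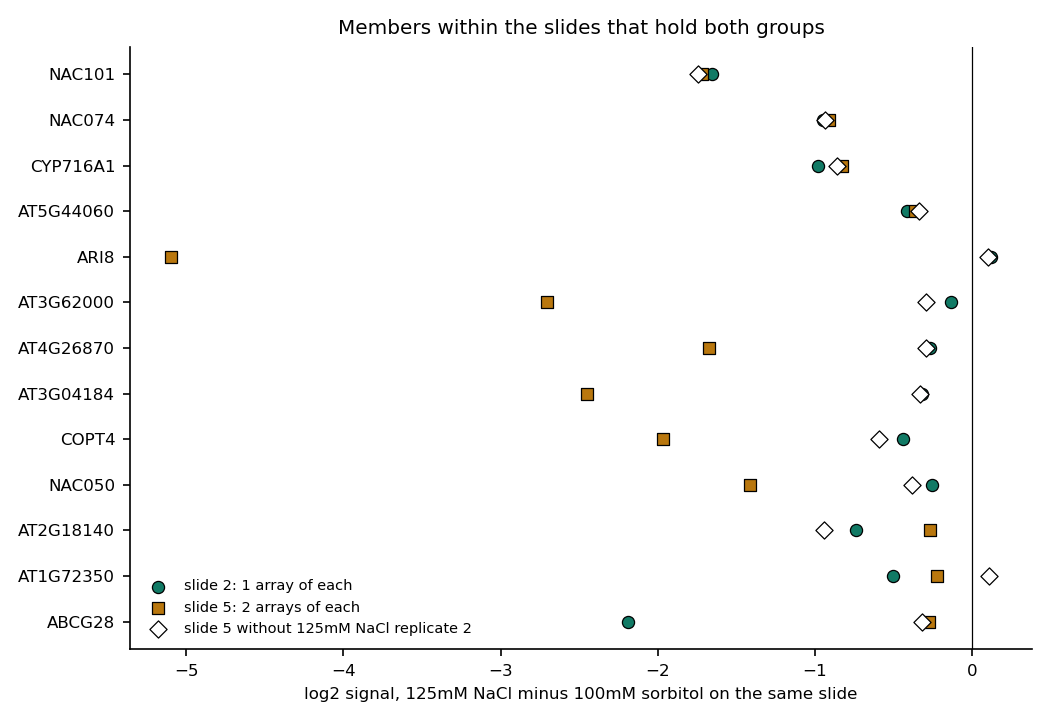
Log2 signal at 125mM NaCl minus that at 100mM sorbitol on the same slide (horizontal axis) for each of the 13 genes (rows), on slide 2 (circles), on slide 5 (squares) and on slide 5 without replicate 2 (diamonds). NAC101, NAC074, CYP716A1 and AT5G44060 have their 3 points close together, whereas ARI8 spans 0.12 to -5.10.

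The limits of the rule were set on no sorbitol value. The sorbitol arrays entered only the choice of the brightest probe and the filter on dim genes, but the fit shares 1 spread per gene over all groups, and so the tests between sorbitol doses carry the spread of the NaCl arrays. Between 250mM and 100mM sorbitol, 2 of the 13 genes were called lower and 1 higher (limma, adjusted p under 0.01), against 25.8% and 32% of all genes tested. The SE was 1.57 in ARI8, 0.64 in AT3G04184 and 0.41 in COPT4, the genes with an unmasked low replicate 2, and 0.69 in ABCG28 and 0.59 in AT2G18140, which were dim, so the count is not read as a sorbitol response of the 13 genes. The genes called lower were CYP716A1 (8.09, 8.12 and 8.06 at 250mM, against 8.49, 8.59 and 8.56 at 100mM sorbitol), by -0.46 ± 0.07 (adjusted p = 3.89e-06), and NAC101, by -0.25 ± 0.07 (adjusted p = 0.00206). NAC050 was called higher, by 0.20 ± 0.04 (adjusted p = 0.000106). Because 250mM sorbitol filled its own slide, slide and dose cannot be told apart here.

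Between 200mM and 150mM sorbitol, groups that did share slides, 2 genes were called lower and 0 higher (19.4% and 17.2% of all genes). NAC074 was lower by -0.92 ± 0.06 (limma adjusted p = 5.15e-11) and CYP716A1 by -0.58 ± 0.07 (adjusted p = 3.54e-07). NAC101 lay at -0.21 with a limma adjusted p of 0.0117, and with the replicate number as a block at 0.00252, which makes 3 genes called lower. The share of all genes called under that block was not computed. At an unadjusted p under 0.05 there was likewise no member higher.

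Against ATS media, 250mM sorbitol gave 4 genes called lower and 2 higher (limma), while 30.5% and 36.2% of all genes were called. Lower were AT1G72350, where neither group was reliably above background, AT5G44060, CYP716A1 and NAC074. Higher were NAC101 and NAC050. NAC050 lay at 0.21 with its brightest probe and at -0.22 with its second. The median of the 13 genes was 0.05, against 0.04 for all genes tested.

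The errors of ARI8, AT3G04184 and COPT4 narrowed when replicate 2 of 125mM NaCl was left out. AT3G04184 had 9.60, 9.73 and 9.69 at 250mM sorbitol, above all 3 ATS media arrays, and was not called (0.68 ± 0.64, adjusted p = 0.342). Without that array its SE was 0.05 and it was called higher (adjusted p = 1.46e-10). COPT4 changed in the same manner (0.28 ± 0.06 without the array, limma adjusted p = 0.000264), as did ARI8 (0.22 ± 0.04, adjusted p = 8.34e-05). The number called higher was then 5 in place of 2. With all arrays 36.2% of all genes were called higher. The share without that array was not computed, and nothing is read from the count.

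**Figure D5:**
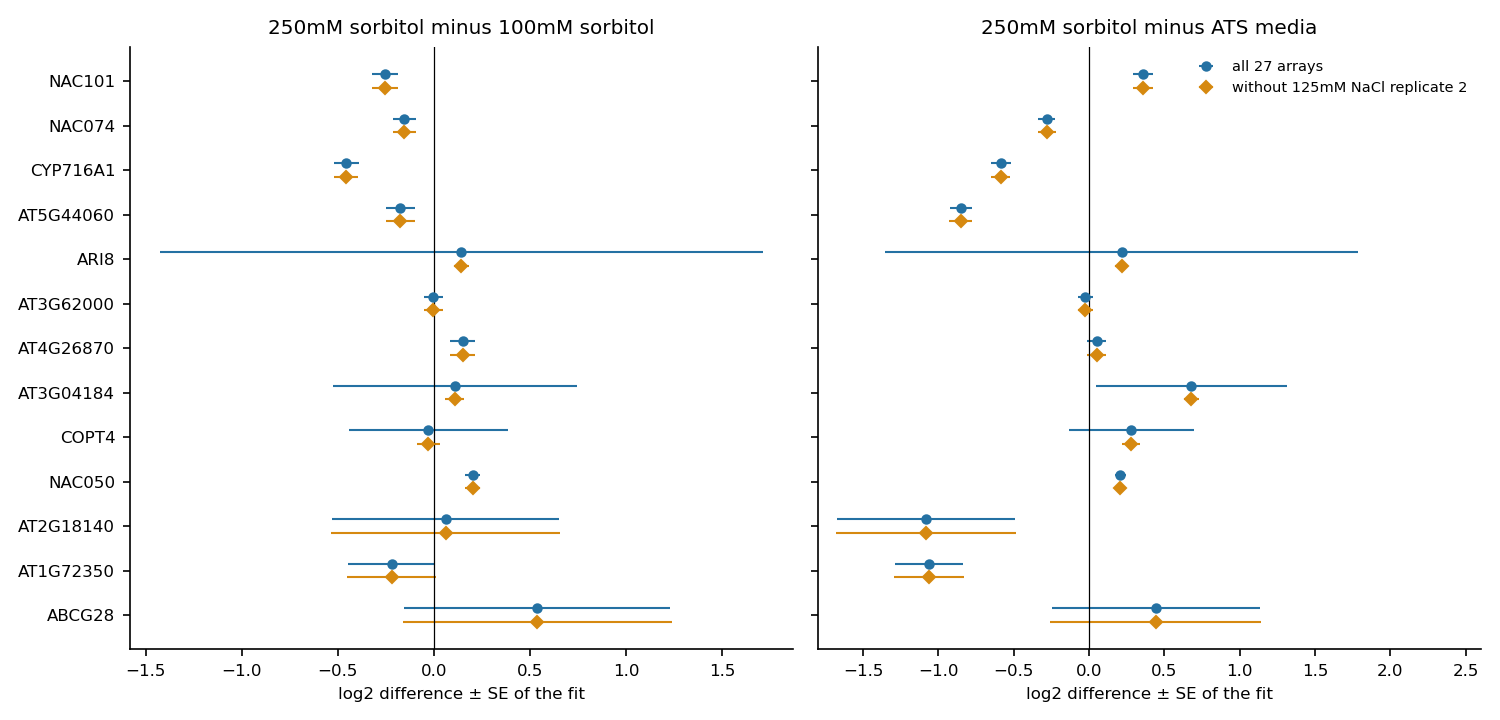
Log2 difference of each of the 13 genes (rows) between 250mM and 100mM sorbitol (left) and between 250mM sorbitol and ATS media (right), with bars of 1 SE of the limma fit, for all 27 arrays (blue) and without 125mM NaCl replicate 2 (orange). The bars of ARI8, AT3G04184 and COPT4 are wide only with that array, for example 0.64 against 0.05 in AT3G04184.

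By family, 3 of the 13 genes were NAC factors (NAC101, NAC074 and NAC050) out of 83 tested, and 1 was a cytochrome P450 out of 200. The lists were drawn up by gene symbol, so the 6 members without one could enter none, and COPT4 carries a symbol that no list asked for. The other lists held 0 members. The other 80 NAC genes were not lowered as a family. At 125mM NaCl, 30 were called lower and 33 higher (37.9% and 32.4% of all genes) with a median of 0.08, against a median of -0.03 over all genes. The lowest were NAC094 (-2.26), SMB (-2.05) and FEZ (-1.95), of which SMB and FEZ control the root cap, and each was already more than 1 unit down at 100mM NaCl. The highest were NAC004 (2.098) and NAC060 (2.09). At 250mM sorbitol, 20 of the 80 were called lower and 38 higher than in ATS media (30.5% and 36.2% of all genes were).

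The thresholds divided genes with nearly equal values. CYP716A1 and ABCG28 were just inside the fall limit, both at -1.01, and AT1G67910 was just outside it at -0.9998, with 11.42, 11.42 and 11.43 at 125mM NaCl. AT1G26680 came next at -0.94. At the 0.3 limit, AT3G60210 (-0.31 at 100mM NaCl) was just outside, and its 125mM NaCl signals of 13.16, 7.87 and 13.12 showed the same low replicate 2. AT5G04700, at 0.32 at 75mM NaCl, was next. A fall limit of 0.8 units gave 36 genes. A band of 0.4 units gave 31 genes.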

How the data were processed

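RNA of whole Col-0 seedlings was hybridised, with Cy3, to Agilent Arabidopsis (V4) 4 x 44k arrays. The authors deposited spot intensity values from Agilent Feature Extraction 10.7, with 0 or 1 flags of other kinds (well above background, outlier), and a series table of quantile-normalized intensity. That table differed from a quantile normalization of the processed signal over all 43803 gene spots by at most 4.8e-08%, and its log2 values were used. Of these spots, 34351 matched 1 locus through RefSeq accessions (25371 genes, 6917 with over 1 probe). Genes take the probe with the highest mean. No 2 arrays were identical.

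A model with a mean for each of the 9 groups was fitted with limma 3.58.1 (R 4.3.3) after 530 outlier-flagged values were masked, so that the 125mM NaCl means of AT3G62000, AT4G26870 and NAC050 rest on 2 arrays in the fit. The rule itself was applied unmasked. Tests are two-sided with Benjamini-Hochberg adjustment over all genes, called under 0.01. In simulated data the fit was tested on known changes before use.

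The members and lists were chosen with earlier results of these data known. The named genes are all members and those next to each limit. The VND, xylem and marker genes, the extreme NAC genes and those gained without an array were named after their values were seen. Replicates of 200mM and 150mM sorbitol with the same number, which share slides, deviated together (correlations 0.496, 0.144 and 0.235), so the replicate block is given for them. Those of 250mM and 100mM sorbitol, and of 250mM sorbitol and ATS media, did not, and no other pairs were checked. Alternatives were other scalings, probe means, no filter on dim probes, other limits, slide and replicate blocks and each array left out. Promoter motifs were not searched, and no sequence is shown.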

Additional observations from a re-analysis of the deposited data

Results flagged for a closer look

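In 3 genes, NAC101, COPT4 and NAC050, all 125mM NaCl arrays lay below and all 250mM sorbitol arrays above every ATS media array, as in 11.9% of the genes without a masked value. NAC101 lay -1.08 units from ATS media at 125mM NaCl and 0.36 at 250mM sorbitol. COPT4 lay at -1.15 and 0.28, and NAC050 at -1.02 and 0.21. The difference between the 2 treatments was not tested, because the 125mM NaCl arrays chose the genes. In COPT4 and NAC050 the NaCl value rests on replicate 2, without which it is -0.24 and -0.32, and the second probe of NAC050 lies at -0.22 at 250mM sorbitol.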

How the results depend on the processing

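The rule gave 13 genes. With normexp background it gave 8, and the 4 shared were ARI8, AT3G62000, AT4G26870 and NAC050, all from the block of low spots. It gave 36 and 4 with a fall limit of 0.8 and 1.2, and 6 and 31 with a band of 0.2 and 0.4. It gave 7 without the block of low spots (chosen after seeing the data) and 9 to 16 with each array left out. The other settings gave 10 to 15.

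Between 250mM and 100mM sorbitol, the count lower was 2 and the count higher 1. They were 4 and 2 at an adjusted p under 0.05, 1 to 3 and 1 to 2 with each array left out, and 0 were higher with the mean of all probes. The second gene higher was ARI8 without 125mM NaCl replicate 2 and AT4G26870 without 200mM sorbitol replicate 1. NAC101 was not called without 100mM sorbitol replicate 3 (adjusted p = 0.0131) or without 250mM sorbitol replicate 1 (adjusted p = 0.0131). Against ATS media, 4 were lower and 2 higher at 250mM sorbitol. With slide as a random block (correlation 0.516) 2 were lower, as NAC074 (adjusted p = 0.012) and AT1G72350 (adjusted p = 0.0108) were no longer called, and with probe means 1 was higher. With each array left out, 2 to 5 were higher, the 5 without 125mM NaCl replicate 2. The share of all genes called was computed for the main setting only, so nothing is read from counts under other settings.

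The median of the members at 250mM sorbitol minus ATS media, 0.05, was -0.0019 with normexp, -0.0049 with probe means, and ran from -0.0311 (without ATS media replicate 3) to 0.0871 with each array left out. The median within shared slides, -0.90, was -0.35 with normexp and ran from -0.9108 to -0.3736 with each array left out, being -0.3829 without 125mM NaCl replicate 1 or 100mM sorbitol replicate 1 and -0.3736 without 125mM NaCl replicate 2. The replicate block gave 3 genes called between 200mM and 150mM sorbitol in place of 2, and it left the counts of 2 lower and 1 higher between 250mM and 100mM sorbitol. Those numbers pair nothing there, with correlations of -0.066 to -0.02. With 3 arrays a group, precision is limited, and the dim genes have only bounds.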
